A study of Mus musculus with 6 samples.

Results

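The constitutive proteasome genes were examined in bEND.3 cells, a mouse cell line of immortalized brain endothelium. The set was defined by gene symbol and holds 36 of the 49315 genes in the count table, namely Psma1 to Psma7, Psmb1 to Psmb7, Psmc1 to Psmc6, Psmd1 to Psmd14, Psme3 and Psme4. The inducible subunits were left out by that definition and are given separately. All 36 genes were among the 18234 genes tested, with between 1181 and 19345 counts in a sample. Cells were transfected by lipofection with either an LNA GapmeR against the long non-coding RNA Gm39822 (GapmeR, 4 samples) or a negative control LNA GapmeR (Negative Control, 2 samples), each at 100 nM. A GapmeR is an antisense oligonucleotide whose DNA core directs RNase H to the paired RNA. Both groups therefore carried an oligonucleotide and the Lipofectamine reagent. The study's text gives n = 4 for each group, while 2 control samples were analysed here. The count table holds 1 further column whose heading follows the code of the controls, but no sample label matches it, so it was not used. The labels do not say that samples of a group came from separate cultures, so the p-values measure the spread between these samples, which may be technical.

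The proteasome degrades proteins that carry ubiquitin chains. Its core particle, the 20S proteasome, is a barrel with outer rings of alpha subunits, which gate the entrance, and inner rings of beta subunits, which hold the active sites. The regulatory particle, the 19S cap, recognises the ubiquitin chain, removes it, unfolds the substrate with a ring of ATPases and feeds it into the core. In cells exposed to interferon the catalytic beta subunits are exchanged for inducible ones, which is the form for which the proteasome is best known in antigen presentation by endothelial and other cells. By known function the set is wider than its usual name, because Psmd5, Psmd9 and Psmd10 encode chaperones that assemble the cap and do not stay in it, and Psme3 and Psme4 encode the alternative activators PA28 gamma and PA200. The genes were therefore read in groups of 7 alpha subunits, 7 beta subunits, 6 ATPases of the cap, 11 non-ATPase subunits of the cap, 3 cap chaperones and 2 activators.

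Promoter windows of 30 of the 36 genes were found by symbol in RefSeq's table for GRCm38.p6, the assembly of the mm10 build to which the reads were aligned. Each window runs from 250 bases before to 50 bases after the annotated transcript start. They were searched on both strands for 3 sequences that are known from promoters of housekeeping and stress-response genes, namely the core of the antioxidant response element (TGACNNNGC), to which NRF1, the product of Nfe2l1, and NRF2 bind with small MAF proteins, the CCAAT box and the core of the ETS site (CCGGAAG). Matches to different motifs shared no base in these windows. The antioxidant response core was found in 6 of the 30 genes (20.0%) and in 14.0% of the 27025 genes with a window, and the 6 were Psmb5, Psmb6, Psmc6, Psmd9, Psmd12 and Psme4. The ETS core was found in 12 of the 30 genes (40.0%) and in 9.93% of all genes with a window. The CCAAT box was found in 12 of the 30 genes (40.0%), which is close to its share of 41.1% over all genes. A gene was counted once if any of its windows held a match. The shares over all genes were not limited to genes expressed here, as those of the set are, and no such share was taken. None of the 5 inducible genes held the antioxidant response core or the ETS core.

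The 250 bases before the start are shown for 4 genes, with every match in capitals. Psmd4 and Psmd6 are shown because they had the lowest and the highest log2 fold change of the set, and Psmb5 and Psmb6 because these 2 catalytic subunits held the antioxidant response core. The windows lie on GRCm38.p6 at chr3:95042615-95042864 (minus strand), chr14:14120946-14121195 (minus strand), chr14:54617996-54618245 (minus strand) and chr11:70525107-70525356 (plus strand), and each is written 5′ to 3′ on the strand of its gene.
Psmd4: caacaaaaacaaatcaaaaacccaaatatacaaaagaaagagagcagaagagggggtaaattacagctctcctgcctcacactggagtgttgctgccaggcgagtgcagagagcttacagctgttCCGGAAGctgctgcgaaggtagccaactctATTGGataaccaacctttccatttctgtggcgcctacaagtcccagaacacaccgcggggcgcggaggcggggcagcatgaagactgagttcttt
Psmd6: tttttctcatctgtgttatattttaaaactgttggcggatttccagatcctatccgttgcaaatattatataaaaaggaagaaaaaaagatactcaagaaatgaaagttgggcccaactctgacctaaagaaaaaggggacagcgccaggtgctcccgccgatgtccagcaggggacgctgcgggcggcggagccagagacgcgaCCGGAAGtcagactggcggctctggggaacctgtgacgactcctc
Psmb5: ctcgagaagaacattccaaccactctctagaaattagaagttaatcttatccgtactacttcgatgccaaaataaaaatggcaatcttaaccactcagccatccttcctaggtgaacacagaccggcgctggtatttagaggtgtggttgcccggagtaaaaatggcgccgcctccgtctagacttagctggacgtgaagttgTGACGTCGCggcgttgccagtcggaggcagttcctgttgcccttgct
Psmb6: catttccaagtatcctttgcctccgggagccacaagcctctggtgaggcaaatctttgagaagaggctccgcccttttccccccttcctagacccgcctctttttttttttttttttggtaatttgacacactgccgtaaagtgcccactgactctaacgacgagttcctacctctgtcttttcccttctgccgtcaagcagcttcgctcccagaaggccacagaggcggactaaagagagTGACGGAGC
Relative to the start, with -1 as the last base before it, Psmd4 had an ETS core at -125 to -119 and a CCAAT box on the opposite strand at -95 to -91, with 2 more CCAAT boxes after the start that are not shown. Psmd6 had an ETS core at -45 to -39 and neither other motif. The antioxidant response core lay at -47 to -39 in Psmb5 and at -9 to -1 in Psmb6. A match describes these letters only and is no evidence of binding.

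The targeted transcript was checked first. With the GapmeR, Gm39822 had 2, 1, 4 and 2 counts, beside 61 and 56 with the control oligonucleotide, a log2 fold change of -4.82 (SE 0.41, edgeR adjusted p = 8.82e-08). Total counts were between 29261988 and 37117934 per sample. All 13 endothelial markers examined had counts in every sample, and their summed level was 6650 to 7648 CPM (counts scaled to library size by edgeR's TMM method) in the GapmeR samples and 8825 and 9074 CPM in the controls. Of these markers 1 was called higher and 8 were called lower, against 25.4% and 20.0% of all genes tested. The largest changes went both ways, with log2 fold changes of -1.33 for Emcn, 1.12 for Erg and -0.86 for Sox17. The summed level of 10 macrophage markers was 207 to 385 CPM in the GapmeR samples and 173 and 178 CPM in the controls, with 1 called higher, Cd68. Of the 10, 9 had a positive log2 fold change and 1 a negative one, with a median of 1.07. Lyz2, not called, was at 79.1, 73.5, 168 and 206 CPM in GapmeR samples 1 to 4. Csf1r, also not called, was at 9.33, 7.40, 22.6 and 25.8 CPM in these samples, while Cd68 was at 123, 113, 125 and 116 CPM. The summed level of 11 mural and fibroblast markers was 22.1 to 84.3 CPM and 16.4 and 17.4 CPM, with 1 called higher, Myh11. The highest sum was that of GapmeR sample 3, where Col1a1, not called, was at 38.0 CPM beside 2.21 to 4.58 CPM in the other GapmeR samples. The summed level of 8 neural and glial markers was 25.7 to 42.5 CPM and 53.1 and 54.0 CPM, with 4 called lower, and Olig2 was at 0 in GapmeR sample 1. The part of these markers in the values below was not tested. In such bulk samples, fewer cells of a type and less RNA per cell cannot be told apart.

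The constitutive proteasome genes moved little after Gm39822 knockdown, and the direction of their median depended on the scaling of the libraries. By edgeR's quasi-likelihood test at an adjusted p under 0.05, 1 gene, Psmd6, was higher and 12 genes were lower in the GapmeR samples, and 23 were not called. The share called lower was 33.3% of the set against 20.0% of all genes tested, and the share called higher was 2.78% against 25.4%. Genes expressed at the level of the set moved in a like way. Of the 3412 genes tested whose control mean lay within the range of the set, 61.1 to 593 CPM, 41.2% were called lower and 9.88% higher, with a median log2 fold change of -0.15. No gene of the set was both called and changed by at least 1.5-fold, while 25.4% of all genes tested were. This share was not taken over the 3412 genes. Their log2 fold changes had quartiles of -0.34 and 0.02, beside -0.28 and 0.57 over all genes tested. The median log2 fold change of the set was -0.12, with a range of -0.53 to 0.29, and that of all genes tested was 0.03.

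Per sample, the summed level of the 36 genes was 6788, 6942, 6673 and 6549 CPM in GapmeR samples 1 to 4 and 7516 and 7370 CPM in the controls. The mean was 6738 ± 167 CPM with the GapmeR (SD, n = 4) and 7443 ± 103 CPM with the control (SD, n = 2), a difference of -9.47%, and each GapmeR sample lay below both controls. In 17 of the 36 genes (47.2%) every GapmeR sample lay below both controls, against 27.3% of all genes tested. In 2 genes (5.56%), Psmd5 and Psmd6, every GapmeR sample lay above both, against 31.9%. The plot of each gene in each sample shows both patterns. Shares without overlap were not taken over genes of like level, of which 41.2% were called lower and 9.88% higher.

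**Figure D1:**
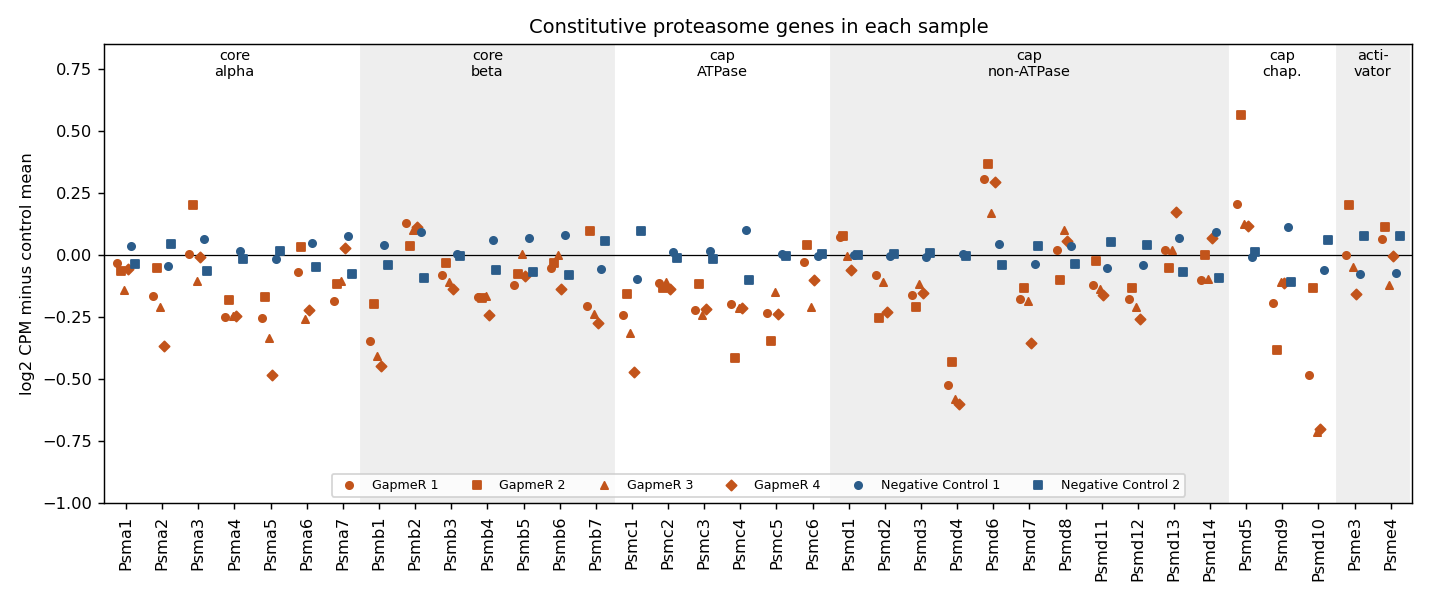
Level of each of the 36 constitutive proteasome genes in each sample, as the log2 of CPM minus the mean log2 CPM of the 2 controls, grouped by role (chap., chaperones). Orange points are the 4 GapmeR samples and blue points the 2 Negative Control samples. All 4 orange points lie below both blue points in 17 genes and above both in 2, and GapmeR 2 (squares) stands apart from the other orange points in Psmd5 and Psmd10.

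These calls depended on how the libraries were scaled. TMM scaled the GapmeR libraries by 1.02 to 1.05, and the control libraries by 0.931 and 0.936. With scaling by library size only, the median of all genes tested moved to 0.17, that of the set moved to 0.02, and the summed level of the set was 0.305% higher in the GapmeR samples. Then 20 genes of the set had a positive log2 fold change, 3 (Psmd6, Psmd5 and Psmb2) were called higher and only Psmd4 was called lower. The median of each group of roles was then above 0 or closer to it, at 0.023 for the alpha subunits, 0.060 for the beta subunits, 0.038 for the non-ATPase subunits of the cap and -0.072 for its ATPases. The fall of the 11 other genes therefore holds relative to the TMM scale and is not called on the library size scale. The calls also changed when 1 sample was left out. A fit without either control leaves 1 control, so calls lost there may be lost for want of samples alone. With 1 sample left out, the log2 fold changes of Psma4 (-0.25 to -0.20) and Psmc5 (-0.25 to -0.21) stayed close to those with all samples. Those of Psmc1 (-0.37 to -0.18) and Psmc4 (-0.34 to -0.14) moved further. Without GapmeR sample 1, 3 or 4, 8 genes were called lower, and without GapmeR sample 2, 16 were. The calls of Psmc3, Psmd7 and Psmd12 were each lost in 9 of the 14 alternative fits. Psmd4 was called lower in all 14 alternative fits.

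**Figure D2:**
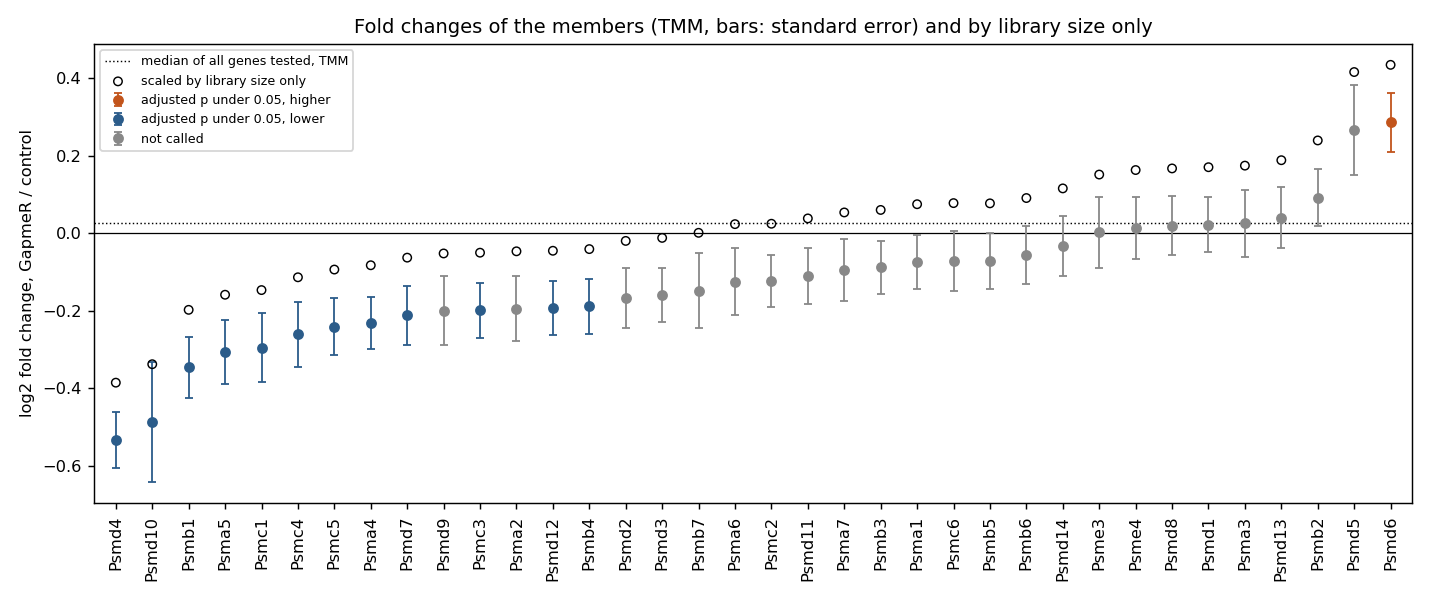
Log2 fold change of GapmeR over Negative Control for the 36 genes, ordered by value. Filled points with bars are TMM-scaled values and their standard errors (blue, called lower; orange, called higher; grey, not called), open circles are values scaled by library size only, and the dotted line is the median of all genes tested at 0.03. The open circles lie above the filled points throughout, and Psmd4 at -0.53 and Psmd6 at 0.29 mark the ends.

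Of the 7 alpha subunits, which form the outer rings and the gate of the core, 2 were called lower and none higher, with a median log2 fold change of -0.13. Psma5 was at 143, 151, 135 and 122 CPM in the GapmeR samples and 168 and 172 CPM in the controls, with a log2 fold change of -0.31 (SE 0.08, edgeR adjusted p = 0.0065). Psma4, whose N-terminal tail closes the gate, was at 141, 148, 142 and 141 CPM in the GapmeR samples and 170 and 166 CPM in the controls, with a log2 fold change of -0.23 (SE 0.07, edgeR adjusted p = 0.0107). For both genes all GapmeR samples lay below both controls. Psma2 also did, at -0.20, but was not called (edgeR adjusted p = 0.0686). Psma1, Psma3, Psma6 and Psma7 lay between -0.13 and 0.03 with overlapping groups. Psma3 had the value nearest to 0, and none of these 4 genes was called.

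The 7 beta subunits form the inner rings. Of these 2 were called lower and none higher, with a median of -0.09. Psmb5, Psmb6 and Psmb7 carry the active sites with chymotrypsin-like, caspase-like and trypsin-like activity. Psmb5 was at 111, 114, 120 and 113 CPM in the GapmeR samples and 126 and 114 CPM in the controls, with a log2 fold change of -0.07 (SE 0.07, edgeR adjusted p = 0.445). Psmb6 was at 233, 236, 242 and 220 CPM in the GapmeR samples and 256 and 229 CPM in the controls, with a log2 fold change of -0.06 (SE 0.07, edgeR adjusted p = 0.563). Psmb7 was at 236, 291, 231 and 225 CPM in the GapmeR samples and 261 and 283 CPM in the controls, with a log2 fold change of -0.15 (SE 0.10, edgeR adjusted p = 0.230). The groups overlapped in all 3 catalytic genes, and none was called with all samples. The highest Psmb7 value was that of GapmeR sample 2, and without this sample Psmb7 was called lower at -0.24 (edgeR adjusted p = 0.0038).

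The 2 beta subunits called lower have no active site. Psmb1 was at 177, 196, 169 and 165 CPM in the GapmeR samples and 231 and 219 CPM in the controls, with a log2 fold change of -0.35 (SE 0.08, edgeR adjusted p = 0.00207). Psmb4, at the highest level of the beta ring, was at 341, 340, 342 and 324 CPM in the GapmeR samples and 400 and 368 CPM in the controls, with a log2 fold change of -0.19 (SE 0.07, edgeR adjusted p = 0.0423). All GapmeR samples lay below both controls in both genes. The call of Psmb4 was the least stable of the 12, and was kept in 3 of the 14 alternative fits. Psmb3 lay at -0.09, with all GapmeR samples below both controls, and Psmb2 at 0.09 with overlapping groups, and neither was called.

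The 6 ATPases of the cap, Psmc1 to Psmc6, form the ring that unfolds substrates and opens the core. Of these 4 were called lower, against 20.0% of all genes tested and 41.2% of the genes of like level. In 5 of the 6 every GapmeR sample lay below both controls, against 27.3% of all genes tested. With library size only none of the 6 was called. Their summed level was 1329, 1324, 1314 and 1280 CPM in the GapmeR samples and 1522 and 1517 CPM in the controls, a difference of -13.7%. Their median log2 fold change was -0.22, beside -0.13 for the alpha subunits, -0.09 for the beta subunits and -0.11 for the non-ATPase subunits of the cap. The median was -0.20 for the cap chaperones, 0.01 for the activators and -0.15 for the genes of like level. The difference between these groups of genes was not tested.

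Psmc1 was at 260, 276, 247 and 222 CPM in the GapmeR samples and 288 and 329 CPM in the controls, with a log2 fold change of -0.30 (SE 0.09, edgeR adjusted p = 0.0127). Psmc4 was at 199, 171, 197 and 197 CPM in the GapmeR samples and 245 and 212 CPM in the controls, with a log2 fold change of -0.26 (SE 0.08, edgeR adjusted p = 0.0175). In these 2 genes the controls differed from each other by more than the smallest gap between the groups. Psmc5 was at 228, 212, 242 and 228 CPM in the GapmeR samples and 270 and 268 CPM in the controls, with a log2 fold change of -0.24 (SE 0.07, edgeR adjusted p = 0.0137). Psmc3 was at 303, 325, 299 and 304 CPM in the GapmeR samples and 358 and 349 CPM in the controls, with a log2 fold change of -0.20 (SE 0.07, edgeR adjusted p = 0.0318). In both, the controls lay close together and above all GapmeR samples. Psmc2 lay at -0.12 without overlap and Psmc6 at -0.07 with overlap, and neither was called. Exons of Smarcd2 on the opposite strand cover 39.5% of the exon bases of Psmc5 on GRCm39, and as no source used here states whether counting used strand, reads of Psmc5 and Smarcd2 may be mixed.

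Among the 11 non-ATPase subunits of the cap, 3 were called lower and 1 higher, so both ends of the set lie in this group. Psmd4, known as Rpn10, is one of the cap's receptors for ubiquitin chains. It was at 181, 193, 174 and 172 CPM in the GapmeR samples and 261 and 260 CPM in the controls. This was a log2 fold change of -0.53 (SE 0.07, edgeR adjusted p = 1.68e-05) and a change of -30.9%. The gap of 66.6 CPM between the groups exceeded the span of 21.3 CPM among the GapmeR samples. Across the 14 alternative fits its log2 fold change was between -0.57 and -0.39. Adrm1, or Rpn13, a further ubiquitin receptor of the cap that is outside the set, was at 238, 229, 259 and 228 CPM in the GapmeR samples and 309 and 322 CPM in the controls, with a log2 fold change of -0.40 (SE 0.07, edgeR adjusted p = 0.000365).

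Psmd6, or Rpn7, a scaffold subunit of the lid, was the only gene of the set called higher. It was at 104, 108, 94.0 and 103 CPM in the GapmeR samples and 86.1 and 81.3 CPM in the controls, with a log2 fold change of 0.29 (SE 0.08, edgeR adjusted p = 0.00557), a change of 21.9%. All GapmeR samples lay above both controls. The call was kept in all alternative fits but that without Negative Control 2, which leaves 1 control. With 1 sample left out the log2 fold change was 0.26 to 0.35. Psmd7, or Rpn8, the partner of the deubiquitinase Psmd14, was at 162, 167, 161 and 144 CPM in the GapmeR samples and 179 and 188 CPM in the controls, with a log2 fold change of -0.21 (SE 0.08, edgeR adjusted p = 0.0328). Psmd12, or Rpn5, a further lid subunit, was at 126, 130, 123 and 119 CPM in the GapmeR samples and 138 and 146 CPM in the controls, with a log2 fold change of -0.19 (SE 0.07, edgeR adjusted p = 0.0330). The groups did not overlap in either gene.

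The other 7 non-ATPase subunits were not called. The large base subunit Psmd2, or Rpn1, and the lid subunit Psmd3, or Rpn3, lay at -0.17 and -0.16, with all GapmeR samples below both controls. Psmd14, or Rpn11, the deubiquitinase that removes the chain from the substrate, lay at -0.03, and Psmd1, or Rpn2, the other large base subunit, lay at 0.02. Psmd8, Psmd11 and Psmd13 lay between -0.11 and 0.04. Groups overlapped in the last 5 of these genes. The exons of Psmd13 are covered to 30.0% by Cox8b on the opposite strand, which had no counts, and to 11.2% by Sirt3, which had 286 to 647 counts.

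The 3 cap chaperones went different ways. Psmd10, known as gankyrin, which binds a cap ATPase during assembly, was at 44.7, 56.9, 38.1 and 38.4 CPM in the GapmeR samples and 59.9 and 65.1 CPM in the controls, with a log2 fold change of -0.49 (SE 0.15, edgeR adjusted p = 0.0313). Its standard error was the highest of the set, and GapmeR sample 2 lay close under the controls. Psmd5 was at 70.4, 90.4, 66.6 and 66.3 CPM in the GapmeR samples and 60.7 and 61.5 CPM in the controls, a log2 fold change of 0.27 (SE 0.12, edgeR adjusted p = 0.0797) that was not called although the groups did not overlap. It was called higher in 7 of the 14 alternative fits, among them DESeq2's Wald test (adjusted p = 0.0477), upper quartile scaling (edgeR adjusted p = 0.0405) and no filter (edgeR adjusted p = 0.00579). Psmd9 was at -0.20 and was not called (edgeR adjusted p = 0.0781). Of the activators, Psme3 and Psme4 lay at 0.00 and 0.01 with overlapping groups (edgeR adjusted p = 0.987 and 0.902).

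Levels were compared between genes per kilobase of the canonical transcript of the GENCODE annotation. In the controls, the mean level of the 31 subunits of core and cap ran from 29.1 CPM per kb for Psmb2 to 324 CPM per kb for Psmb4, an 11.2-fold range. In the alpha ring, whose subunits are present in equal number in the particle, levels ran from 56.4 CPM per kb (Psma3) to 315 CPM per kb (Psma7). The ATPases ran from 41.6 CPM per kb (Psmc6) to 216 CPM per kb (Psmc3), and the non-ATPase subunits from 46.1 CPM per kb (Psmd14) to 197 CPM per kb (Psmd2). The chaperones and activators ran from 9.53 CPM per kb (Psme4) to 42.3 CPM per kb (Psmd10), which overlaps the lowest core and cap subunits. These levels depend on the transcript chosen, and that of Psmb1, at 6002 bases, is the longest among the core subunits. Across the 36 genes the log2 levels per kb of the 2 groups had a Pearson's r of 0.991, as a description of one set of genes measured in the same libraries. Spearman's rho was 0.985, so the order of levels was nearly alike in both groups. Each pair of groups in the plot of levels lies close together beside the range across genes.

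**Figure D3:**
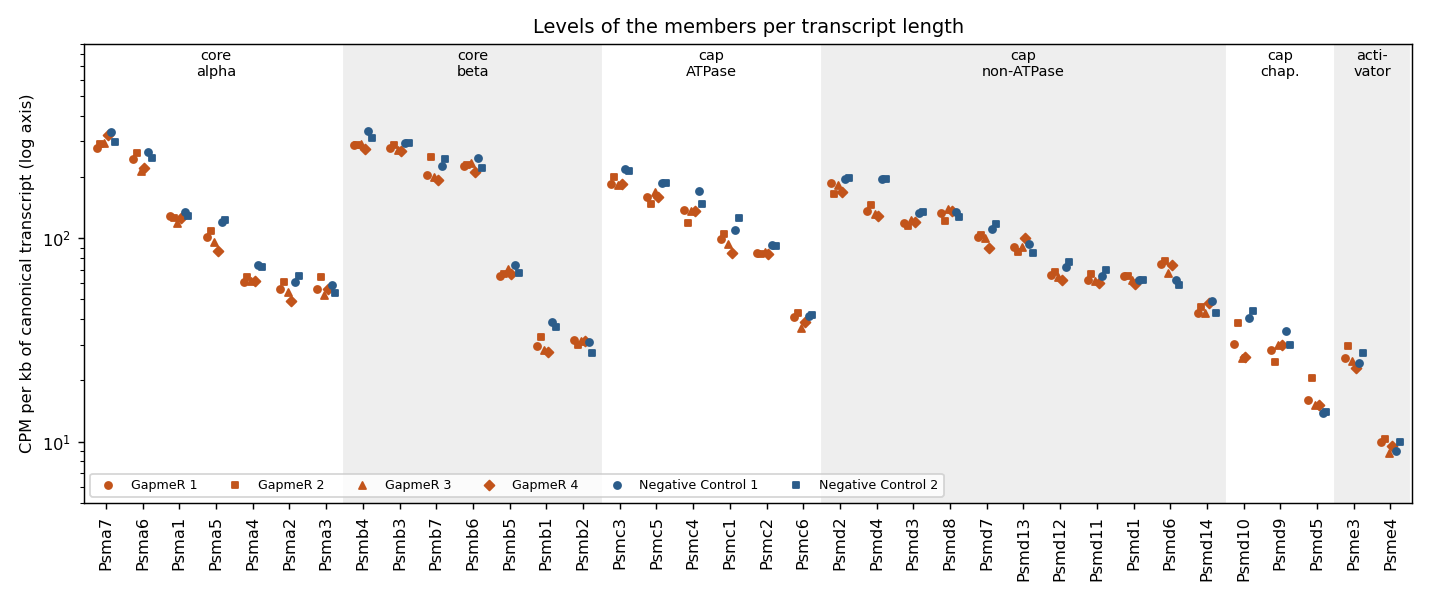
Level of each gene per kilobase of canonical transcript in each sample, on a log axis, grouped by role and ordered within a group by the control mean. Orange points are GapmeR samples and blue points Negative Control samples. Levels in the controls span 9.53 (Psme4) to 324 (Psmb4) CPM per kb, while the 6 samples of a gene lie close together.

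GapmeR sample 2 differed most from the other GapmeR samples in these genes. In 9 of the 36 genes it lay more than 0.2 on the log2 scale from the mean of the other 3 GapmeR samples, against 0 genes for GapmeR sample 1, 1 for sample 3 and 5 for sample 4. Its differences ran from -0.24 in Psmd9 to 0.49 in Psmd10, with an SD over the set of 0.165, beside an SD of 0.178 over genes of like level. Across the 36 genes these differences had a Pearson's r of -0.49 with the GC content of the canonical transcript. Over genes of like level it was -0.37. The correlation was not particular to this sample or to the set. It was -0.11 for GapmeR sample 1, 0.64 for sample 3 and 0.23 for sample 4 over the set. For sample 3 it was 0.50 over genes of like level. The part of GC content in the values above was not tested.

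The inducible subunits replace the catalytic subunits or, for Psme1 and Psme2, form the PA28 activator. All 5 were called lower, with every GapmeR sample below both controls, and their log2 fold changes of -0.91 to -0.46 lay below those of 34 of the 36 constitutive genes. Psmb10 was at 209, 186, 208 and 186 CPM in the GapmeR samples and 357 and 386 CPM in the controls, with a log2 fold change of -0.91 (SE 0.08, edgeR adjusted p = 8.25e-08). Psmb9 was at 68.3, 61.2, 70.9 and 61.8 CPM in the GapmeR samples and 99.4 and 101 CPM in the controls, with a log2 fold change of -0.61 (SE 0.08, edgeR adjusted p = 6.92e-06). Psmb8 was at 388, 292, 378 and 306 CPM in the GapmeR samples and 463 and 474 CPM in the controls, with a log2 fold change of -0.46 (SE 0.11, edgeR adjusted p = 0.00339). Psme1 and Psme2 lay at -0.66 and -0.54. The summed level of the 5 genes was 34.9% lower in the GapmeR samples. All 5 were also called lower with library size only, at -0.77 to -0.31.

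The ratio of an inducible subunit to the constitutive subunit that it replaces does not depend on the scaling of libraries. The ratio of Psmb10 to Psmb7 counts was 0.884, 0.639, 0.902 and 0.828 with the GapmeR, beside 1.37 and 1.36 with the control, a difference of -0.76 on the log2 scale. The ratio of Psmb9 to Psmb6 was 0.293, 0.259, 0.293 and 0.281 with the GapmeR, beside 0.389 and 0.441 with the control, a difference of -0.56. The ratio of Psmb8 to Psmb5 was 3.51, 2.57, 3.15 and 2.70 with the GapmeR, beside 3.67 and 4.14 with the control, a difference of -0.40. In all 3 ratios every GapmeR sample lay below both controls. Two-sided exact permutation tests of 4 against 2 samples gave p = 0.0667, 0.0667 and 0.133, or 0.1, 0.1 and 0.133 when adjusted over the 3 ratios by the Benjamini-Hochberg method. With 15 regroupings the smallest p possible is 0.0667, so this design cannot reach 0.05. Exons of Nek6 on the opposite strand cover 46.8% of the exon bases of Psmb7, so the ratio to Psmb7 may hold reads of Nek6, which had 2566 to 4111 counts. Pseudogenes named after Psmb5, Psmb6 and Psmb7 had at most 1 count in a sample.

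**Figure D4:**
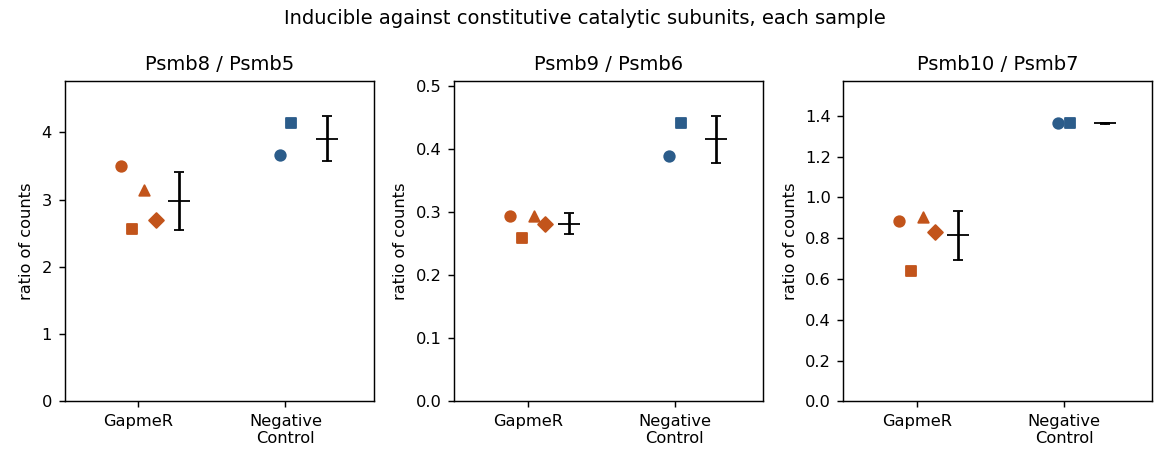
Ratio of the counts of each inducible catalytic subunit to those of the constitutive subunit it replaces, for each of the 4 GapmeR (orange) and 2 Negative Control (blue) samples. Black marks are the mean and SD of the ratio in a group, and the axes start at 0. All GapmeR samples lie below both controls, by the widest margin for Psmb10 over Psmb7 (0.639 to 0.902 against 1.36 and 1.37).

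Of 14 genes that build, hold or regulate the proteasome and are outside the set, 5 were called lower and 1 higher, with a median of -0.18, and 4 and 2 with library size only. Pomp, the maturation protein that places the beta ring, was at 278, 275, 276 and 264 CPM in the GapmeR samples and 356 and 344 CPM in the controls, with a log2 fold change of -0.36 (SE 0.07, edgeR adjusted p = 0.000533). Psmf1, which encodes the inhibitor PI31, was the gene called higher, at 65.0, 56.8, 68.4 and 63.1 CPM in the GapmeR samples and 46.2 and 40.5 CPM in the controls (log2 fold change 0.55, SE 0.09, edgeR adjusted p = 8.69e-05). Fbxo7, whose product binds PI31, lay at -0.53, and Ecpas, which links cap and core, at -0.42, and both were called lower.

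Nfe2l1 encodes NRF1, the transcription factor that induces proteasome genes when proteasome activity falls. It was at 309, 290, 320 and 295 CPM in the GapmeR samples and 479 and 536 CPM in the controls, with a log2 fold change of -0.74 (SE 0.08, edgeR adjusted p = 7.89e-07), so no GapmeR sample overlapped a control. Of 12 genes for NRF1, NRF2 and the proteins that process or partner them, 7 were called lower and 3 higher, and 4 and 3 with library size only. Ufd1, which works with the VCP segregase in its extraction from the endoplasmic reticulum, lay at -0.82, and Ngly1, which removes its sugars, lay at 0.67. Of the 6 genes of the set with an antioxidant response core in the window, 1 was called, Psmd12, which was lower. This call was kept in 5 of the 14 alternative fits. Of all 36 genes 13 were called, and of all genes tested 25.4% were called higher and 20.0% lower. Of 12 tested genes for ubiquitin supply and shuttle factors, 6 were called lower and none higher, but 1 lower and 1 higher with library size only. The 6 included the shuttle factor Ubqln2 at -0.62, the polyubiquitin gene Ubb at -0.31 and the activating enzyme Uba6 at -0.27. Of the tissue-restricted subunits, Psmb11 of the thymus had 34, 50, 30 and 23 counts with the GapmeR, beside 0 and 1 with the control. It was called higher (log2 fold change 5.60, edgeR adjusted p = 7.31e-06), at counts near the floor. More genes had counts in the GapmeR samples, 22830 to 23566, than in the controls, 20573 and 21087. Psma8 of the testis had at most 1 count in a sample.

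Other multi-subunit complexes gave a further background. Of 9 signalosome genes, which encode a complex related in structure to the lid, 1 was called lower and 1 higher, with a median of -0.08. Of 14 genes of the initiation factor eIF3, also related to the lid, 4 were called lower and 1 higher, with a median of -0.13, and these include Eif3h at 0.88. None of 8 genes of the chaperonin CCT was called, and their median was -0.08. The medians of these complexes are near the -0.12 of the constitutive proteasome genes, whereas the inducible group had a median of -0.61. With library size only the medians turned positive for the signalosome (0.071), eIF3 (0.018) and CCT (0.072), as for the constitutive genes (0.024), while that of the inducible group stayed negative at -0.46.

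**Figure D5:**
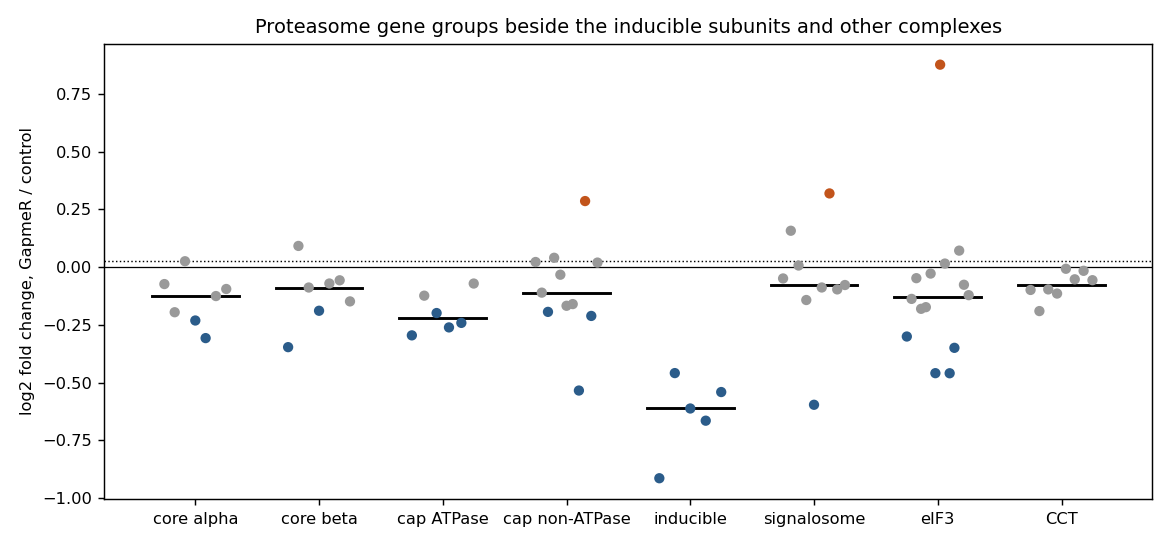
Log2 fold change of GapmeR over Negative Control for each gene of 4 constitutive proteasome groups, the inducible subunits and 3 other complexes. Points are genes (blue, called lower; orange, called higher; grey, not called), thick bars are group medians, and the dotted line is the median of all genes tested. The medians of the constitutive groups lie between -0.22 and -0.09 and that of the inducible group at -0.61.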

How the data were processed

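Total RNA of the cells was ribodepleted before paired-end sequencing. For alignment the authors used STAR, the mm10 build and Ensembl's transcript models. The submitters' processing notes list Trimmomatic 0.36, STAR 2.5.2b and Subread 1.5.2, without their roles. The authors deposited whole-number read counts per gene, not normalized, for 49315 genes, of which 174 have no gene name. Whether strand was used in counting is not given in the sources used here. Samples were grouped by their labels, and 1 further per-sample column, headed like the controls but matched by no label, was not used.

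A gene entered the test when 2 or more samples held 5 or more counts. The test was that of edgeR 4.0.16 in R 4.3.3, with TMM scaling, robust quasi-likelihood dispersions, no covariate and Benjamini-Hochberg adjustment over all genes tested, at a threshold of 0.05. The study's own DESeq2 Wald test, here with DESeq2 1.42.0, was an alternative. The biological coefficient of variation was 8.42%. SDs are between samples, and a standard error (SE) was derived from the log2 fold change and the F value of its test. Counting error alone is small at the counts of these genes. Chi-squares between replicates, per degree of freedom, were 5.41 to 25.2, so no samples were alike within sampling noise. The limit of detection, 3 counts, was 0.0771 to 0.110 CPM and covers counting error only.

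The members and all gene lists were chosen with earlier results of these data known. All 36 members were accounted for, and those given in full are the 3 catalytic subunits, the 12 called members with the largest absolute log2 fold changes and any called member in the rarer direction, while Psmb4 was given as the 13th. Of other lists, the inducible subunits, Nfe2l1, Pomp and up to 3 called genes with the largest changes were named. Adrm1, Eif3h, Psmb11, Cd68, Lyz2, Csf1r, Myh11, Col1a1 and Olig2 were named beside them. Paaf1 was not matched, Ecpas was matched by a RefSeq synonym, and the list of ubiquitin genes lost 1 gene to the filter and holds 1 fewer that is not reported here. Lengths, GC content and exon overlaps come from GENCODE annotation on GRCm39, and promoter windows from RefSeq on GRCm38.p6. Ratios were compared by exact permutation. Alternatives were DESeq2's size factors, library size only, upper quartile scaling, DESeq2's Wald test, limma-voom (limma 3.58.1), 2 other filters, a 1.5-fold threshold, a replicate block, 0.5 added to counts in ratios and each sample left out. A fit of the block's 4 samples without the block, and a count without members that overlap oppositely transcribed genes by over 25% of exon bases, were chosen after seeing the data. The test was tested on simulated data, and its requirement on false calls was relaxed after its first result. Tables and figures used Python 3.11.15, pandas 2.3.3, scipy 1.17.1 and matplotlib 3.10.9.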

Additional observations from a re-analysis of the deposited data

Results flagged for a closer look

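Among the 4 GapmeR samples, 1 sample stood apart from the other 3 in 4 of the 46 values examined for this, namely the levels of the 36 genes, the sums of the set and its 6 groups and the 3 ratios. A value was listed where the gap between the highest or lowest sample and its nearest neighbour, divided by the range of the 4 samples, was above Dixon's critical value for 4 samples. Chance lists about 1 in 20 such groups, and the values share the same samples. The ratio of gap to range was 0.931 for Psmc4, where GapmeR sample 2 was low at 171 CPM beside 197 to 199 CPM. It was 0.910 for Psma4, where GapmeR sample 2 was high at 148 CPM beside 141 to 142 CPM, and all 4 samples lay below both controls. For Psmd5 it was 0.8294, with GapmeR sample 2 high at 90.4 CPM beside 66.3 to 70.4 CPM. For Psmb4 it was 0.867, with GapmeR sample 4 low at 324 CPM beside 340 to 342 CPM. GapmeR sample 2 was thus the sample apart in 3 of the 4 values.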

How the results depend on the processing

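Counts of constitutive proteasome genes called, written higher and lower, were 1 and 12. They were 3 and 1 with library size only, 2 and 8 with upper quartile scaling, and 1 and 11 with DESeq2's size factors. They were 2 and 12 with DESeq2's Wald test and 2 and 13 with no filter. With at least 10 counts in every sample they were 1 and 7, and at 1.5-fold 0 and 0. Leaving out GapmeR sample 2 gave 16 lower, and leaving out 1 of the other GapmeR samples gave 8 lower. Fewer were called lower without either control, where a fit rests on 1 control and calls may be lost for want of samples alone. The median of the set, -0.12, moved to -0.085 with upper quartile scaling, to -0.077 with the stricter filter, to 0.024 with library size only and to -0.14 to -0.080 with 1 sample left out. That of all genes, 0.03, moved to 0.17 with library size only, 0.065 with upper quartile scaling, 0.16 with no filter, 0.0042 with the stricter filter and 0.015 to 0.053 with 1 sample left out. Of all genes, 1390 were called lower at 1.5-fold, 2135 with library size only and 1930 to 3949 with 1 sample left out. The summed level of the set changed from -9.47% to 0.305% with library size only. The difference in the log2 ratio of Psmb9 to Psmb6 was -0.65 to -0.47 with 1 sample left out.

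Same-numbered samples had correlations of deviations of -0.110 and 0.172 over 8870 genes, so the numbers were not taken as pairs. The replicate block rests on 4 samples, and gave 2 higher and 6 lower with a median of -0.0819. Those 4 samples without the block also gave 2 and 6, with a median of -0.0824, so the block itself did not change the counts. With the block Psma6 was at 0.0041, Psmc6 at 0.028 and Psmd8 at -0.019, which turned their signs.

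Other changes of sign were in genes that were not called. With library size only Psma1 was at 0.075, Psma6 at 0.0234, Psma7 at 0.053, Psmb3 at 0.060, Psmb5 at 0.077, Psmb6 at 0.091, Psmb7 at 0.00096, Psmc2 at 0.0244, Psmc6 at 0.078, Psmd11 at 0.038 and Psmd14 at 0.12. Psmd14 was at 0.014 with the stricter filter and 0.0058 with upper quartile scaling, and Psme3 at -0.0018 with limma-voom and -0.0015 with no filter. With 1 sample left out Psma3 ran from -0.035 to 0.11, Psma7 from -0.15 to 0.00057, Psmb5 from -0.12 to 0.017, Psmb6 from -0.12 to 0.044, Psmd13 from -0.0066 to 0.13, Psmd14 from -0.10 to 0.081, Psme3 from -0.068 to 0.10 and Psme4 from -0.040 to 0.11. The cause of these changes was not tested. With 2 controls, no exact permutation test can reach 0.05.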
